A study of Mus musculus with 99 samples.

Results

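H3K27me3 ChIP-seq peaks of 4 mouse embryonic stem cell (ESC) libraries from MTF2 knockout (MTF2 KO) lines were examined, 4 of the 99 libraries of the series. The members were chosen by their labels, as the H3K27me3 immunoprecipitations of MTF2 KO cells without their inputs. All 4 derive from ROSA26::creERT2 Ring1a-/-;Ring1b fl/fl ESCs, so that RING1A is absent from every line and 0.5 µM 4-hydroxy tamoxifen (OHT), given for 72 h, deletes the endogenous Ring1b, while cells marked -OHT received the ethanol vehicle. The members are the Parental line without OHT (Parental -OHT, endogenous RING1B present), the Parental line with OHT (Parental +OHT, no RING1B), and OHT-treated lines that express FLAG-HA-tagged RING1B from a stably integrated CAG-driven vector, as the wild-type protein (RING1B WT +OHT) or with the catalytically dead missense mutation (RING1B I53S +OHT). In each of these lines Mtf2 was disrupted with Cas9 and a pair of guides and clones were picked by Western blot. How many clones stand behind a condition is not given in the sources used here. The files hold no MTF2 profile or RNA of the MTF2 KO lines, so neither the knockout nor the ESC identity of these lines could be checked in their own data.

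The Polycomb system marks repressed developmental genes through 2 enzyme complexes. PRC1, built on RING1A or RING1B, mono-ubiquitinates histone H2A (H2AK119ub1), and PRC2, with its core subunit SUZ12, tri-methylates histone H3 (H3K27me3). PRC2 exists as PRC2.1, which carries a Polycomb-like subunit such as MTF2 that binds unmethylated CpG-rich DNA, and as PRC2.2, which carries JARID2 and AEBP2 and recognises H2AK119ub1. The MTF2 KO lines therefore bear on where H3K27me3 is kept when the main Polycomb-like subunit of ESCs is missing, with RING1B active (Parental -OHT, RING1B WT +OHT) or with RING1B absent or catalytically inactive (Parental +OHT, RING1B I53S +OHT).

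The values behind each library are a list of peaks with start, end and a score, the −log10 p-value of MACS2, of which the lowest is 10. Each condition has 1 H3K27me3 library, so that differences between conditions have no replicate check and no test was made of them. The 95% Wilson intervals cover counting over loci only. Read depth is unknown from the peak lists, the spike-in scaling of the study does not enter them, and a lower number of peaks, a shallower library and a weaker immunoprecipitation cannot be told apart. A locus without a peak is therefore one at which no peak passed the caller's threshold. The 4 inputs of these lines gave 19, 17, 15 and 9 peaks, and between 0 and 1 H3K27me3 peak of a member met a peak of its input.

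The promoters of 5 genes show the range of the results, each printed 5′ to 3′ in the sense of its gene as the 300 bases across a start site, most of them upstream (RefSeq, build GRCm38.p6), with CpG dinucleotides in capitals. The start site printed was the RefSeq one nearest the gene's highest-scored promoter peak. For Otop2, Grb10 and Trpm8 it lies inside the annotated gene and not at its outer start. Prdm12 (chr2:31639787-31640086, plus strand), which encodes a PR domain zinc finger factor of sensory neurons, is the locus shown for this experiment. Otop2 (chr11:115322280-115322579, plus strand), an otopetrin proton channel gene, had the highest score in MTF2 KO Parental -OHT among genes with no promoter peak in either RING1B-inactive library, a score it shares with Ush1g, its neighbour. Grb10 (chr11:12027922-12028221, minus strand), an imprinted gene for an adaptor of growth factor receptors, Ugt1a1 (chr1:88211709-88212008, plus strand), the bilirubin glucuronosyltransferase gene, and Trpm8 (chr1:88306485-88306784, plus strand), a cold-sensing channel gene, had the highest-scored promoter peaks in MTF2 KO RING1B I53S +OHT.
Prdm12: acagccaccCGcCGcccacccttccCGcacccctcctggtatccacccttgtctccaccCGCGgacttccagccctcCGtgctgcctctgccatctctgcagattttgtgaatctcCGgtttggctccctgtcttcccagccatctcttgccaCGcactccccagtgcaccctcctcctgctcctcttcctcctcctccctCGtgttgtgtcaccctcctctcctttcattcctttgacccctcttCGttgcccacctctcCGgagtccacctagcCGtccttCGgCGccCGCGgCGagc
Otop2: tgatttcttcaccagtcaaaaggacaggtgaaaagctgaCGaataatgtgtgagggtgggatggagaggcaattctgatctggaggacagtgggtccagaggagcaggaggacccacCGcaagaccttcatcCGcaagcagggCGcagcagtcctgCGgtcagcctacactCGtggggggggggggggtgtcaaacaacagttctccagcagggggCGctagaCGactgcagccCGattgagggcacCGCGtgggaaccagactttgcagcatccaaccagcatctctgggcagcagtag
Grb10: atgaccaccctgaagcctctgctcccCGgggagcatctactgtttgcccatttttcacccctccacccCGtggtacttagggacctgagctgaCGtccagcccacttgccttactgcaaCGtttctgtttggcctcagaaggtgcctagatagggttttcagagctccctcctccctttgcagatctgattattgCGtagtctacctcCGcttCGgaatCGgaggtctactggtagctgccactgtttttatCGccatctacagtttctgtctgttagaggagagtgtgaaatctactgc
Ugt1a1: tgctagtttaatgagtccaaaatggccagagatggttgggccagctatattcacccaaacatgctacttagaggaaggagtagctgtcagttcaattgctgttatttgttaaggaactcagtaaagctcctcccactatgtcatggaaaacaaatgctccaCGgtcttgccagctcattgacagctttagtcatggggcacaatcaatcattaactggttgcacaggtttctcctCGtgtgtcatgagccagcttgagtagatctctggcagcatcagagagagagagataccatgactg
Trpm8: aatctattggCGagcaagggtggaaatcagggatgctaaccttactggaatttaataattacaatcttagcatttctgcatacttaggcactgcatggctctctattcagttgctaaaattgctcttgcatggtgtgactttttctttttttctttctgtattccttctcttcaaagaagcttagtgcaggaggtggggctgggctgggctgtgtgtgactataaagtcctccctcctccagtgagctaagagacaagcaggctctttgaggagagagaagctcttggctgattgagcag

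The promoter of Prdm12 holds 17 CpG dinucleotides in 300 bases and that of Otop2 holds 11, against 9 for Grb10, 2 for Ugt1a1 and 1 for Trpm8. Over all 21938 protein-coding promoters of this length, each taken at the outer start of its gene, the median was 11, and 53.5% had 10 or more. Of the 3 strongest promoters of the I53S library, Ugt1a1, printed at its outer start, had far fewer CpG than this median. The counts of Otop2, Grb10 and Trpm8 come from inner starts chosen by their peak, so they are not compared with it.

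MTF2 KO Parental -OHT cells had 7852 H3K27me3 peaks over 13.1 Mb, Parental +OHT cells 332 peaks over 0.365 Mb, RING1B WT +OHT cells 3382 peaks over 5.69 Mb and RING1B I53S +OHT cells 2730 peaks over 3.38 Mb. The corresponding MTF2-proficient lines had 18245, 14283, 19761 and 18909 peaks. Every MTF2 KO library thus had the shorter list of its pair, and the shortest of all was that of cells lacking both MTF2 and RING1B. Peak width followed another order than peak number. The median width was 1273 bp in Parental -OHT, 862 bp in Parental +OHT, 1312 bp in RING1B WT +OHT and 992 bp in RING1B I53S +OHT, and 855, 9, 375 and 122 peaks reached 3 kb or more. The widest peak measured 25960 bp, 6784 bp, 25962 bp and 13066 bp, respectively, and the highest score was 54.4, 20.5, 55.2 and 50.8.

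A single chromosome held an unequal part of these peaks. Chromosome 11 carried 31.6% of the peaks of MTF2 KO Parental -OHT, 59.6% of Parental +OHT, 31.7% of RING1B WT +OHT and 52.7% of RING1B I53S +OHT. It carried between 18.1% and 22.0% of the peaks of the MTF2-proficient lines, 18% of the RING1B loci described below and 7.47% of the protein-coding genes. Without it 5369, 134, 2311 and 1292 peaks were left, with median widths of 1210, 682, 1258 and 820 bp. The part of this chromosome in the results was not tested. The numbers of peaks, of occupied loci and of marked promoters are given with and without it, a choice made after the data were seen. Other values cover all chromosomes unless stated.

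**Figure D1:**
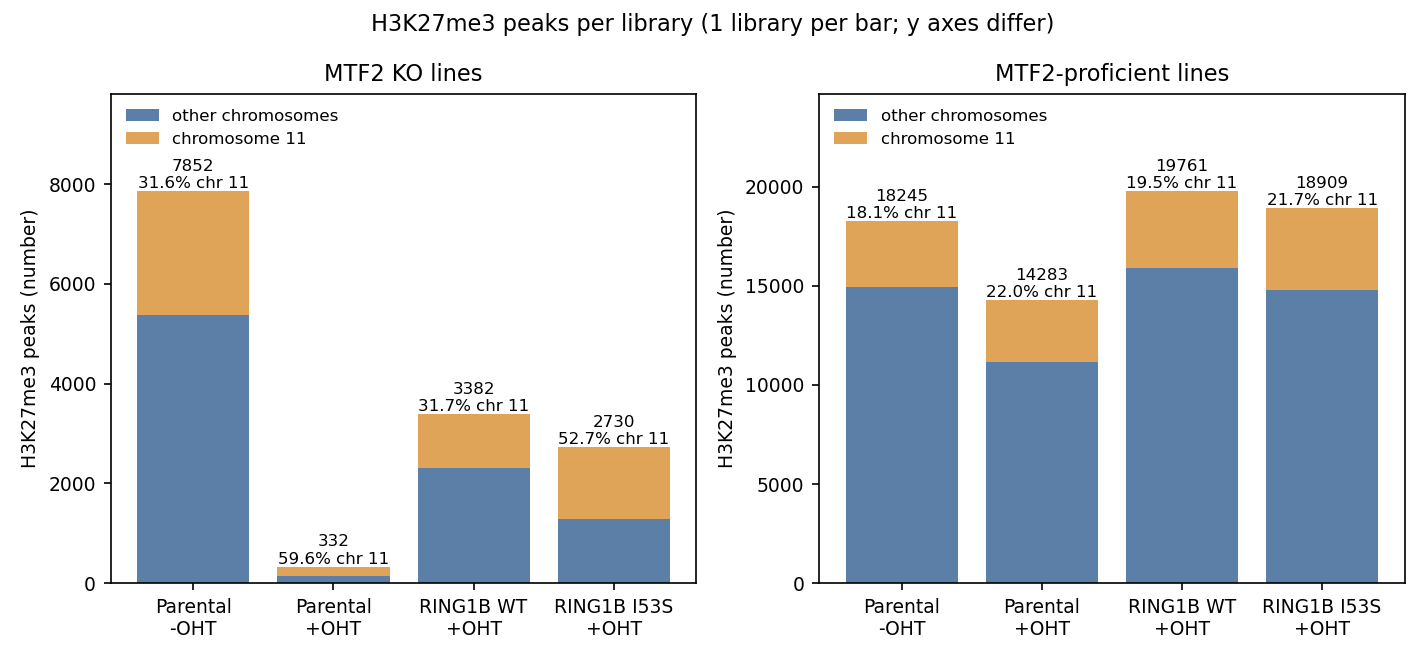
Number of H3K27me3 peaks (y axis, scales differ between panels) in each MTF2 KO library (left) and MTF2-proficient library (right), 1 library per bar, split into chromosome 11 and the other chromosomes. Cells lacking MTF2 and RING1B had 332 peaks, of which 59.6% lay on chromosome 11.

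The peaks of the 4 libraries differed in where they lay. A peak was called at a promoter where it came within 2.5 kb of a start site of a protein-coding gene. That held for 42.9% of peaks in MTF2 KO Parental -OHT, 41.0% in Parental +OHT, 57.6% in RING1B WT +OHT and 22.2% in RING1B I53S +OHT. In the I53S cells the promoter share was thus the lowest, also away from chromosome 11 (23.9%, against 48.6%, 47.0% and 63.9%). This was also so in the MTF2-proficient lines, with 43.8%, 43.2%, 40.1% and 27.8% in the same order of conditions. Off chromosome 11 these had 46.5%, 46.7%, 43.0% and 28.9%. A peak of SUZ12, the core subunit of PRC2, in the same MTF2 KO line met 32.9%, 16.9%, 56.5% and 3.08% of the H3K27me3 peaks. Of the 2730 peaks of the MTF2 KO I53S cells, 75.6% overlapped an H3K27me3 peak of the MTF2-proficient I53S cells, but 38.8% overlapped one of untreated MTF2-proficient Parental cells, against 81.0%, 67.2% and 93.6% for Parental -OHT, Parental +OHT and RING1B WT +OHT. The peaks of MTF2-proficient Parental +OHT, RING1B WT +OHT and I53S cells overlapped those of the untreated cells at 58.6%, 64.4% and 37.8%.

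The sequence under the I53S peaks was low in CpG. They held 46.5% GC, 0.886 CpG per 100 bases and 24.7% repeat-masked bases, where the peaks of MTF2 KO Parental -OHT held 49.5%, 1.57 and 15.9%, those of RING1B WT +OHT 50.5%, 2.15 and 14.8%, and those of Parental +OHT 47.0%, 1.17 and 21.8%. The MTF2-proficient I53S list held 48.2%, 1.42 and 20.4%, with 2.06 to 2.27 CpG per 100 bases in the other MTF2-proficient lists. The values of the whole genome were 41.7%, 0.826 and 36.4%. Within the I53S list, the 1670 peaks away from H3K27me3 peaks of untreated MTF2-proficient cells had 0.709 CpG per 100 bases, and the 1060 peaks on them had 1.08. The highest-scored peak of the list (score 50.8, 808 bp, chr7:141638540-141639347, inside Muc6, a gastric mucin gene) had 0.99 CpG per 100 bases and 1.24% repeat-masked bases. Its central 150 bases (chr7:141638869-141639018, plus strand, mm10) are printed with CpG in capitals and hold 3.
chr7 peak: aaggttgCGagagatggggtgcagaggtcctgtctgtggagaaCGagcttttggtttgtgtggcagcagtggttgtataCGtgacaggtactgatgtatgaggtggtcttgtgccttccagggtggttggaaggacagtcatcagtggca

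This peak is one of the 109 regions with a peak in all 4 MTF2 KO libraries, which are described further on, although it touches no promoter.

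RING1B loci, the 3941 RING1B peaks of OHT-treated cells expressing RING1B WT, served as a common set of loci. Not all of them need be Polycomb targets. H3K27me3 of untreated MTF2-proficient Parental cells met 56.9% of the 708 loci on chromosome 11 and 94.2% of the others. Of the RING1B peaks of MTF2-proficient Parental +OHT cells, which have no RING1B, 82.6% lay on chromosome 11. H3K27me3 met 1329 of the 3941 loci (33.7%, 95% Wilson interval 32.3 to 35.2) in MTF2 KO Parental -OHT, 54 (1.37%, 1.05 to 1.78) in Parental +OHT, 1166 (29.6%, 28.2 to 31.0) in RING1B WT +OHT and 82 (2.08%, 1.68 to 2.58) in RING1B I53S +OHT. Away from chromosome 11 the shares were 32.9%, 0.835%, 28.9% and 1.55%. In the MTF2-proficient lines 87.5%, 67.3%, 84.2% and 43.1% of the loci were met. Without MTF2, the libraries with active RING1B thus held H3K27me3 at many more of these loci than those without RING1B activity. When the same number of peaks was taken from each list, the 332 with the highest scores, the shares were 5.02%, 1.37%, 6.06% and 0.99%, and the order turned both between the 2 active and between the 2 inactive libraries.

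With all chromosomes, SUZ12 met more of the loci than H3K27me3 did in each MTF2 KO line. Off chromosome 11 this order turned in the I53S cells, with H3K27me3 at 50 loci and SUZ12 at 40. There 33 loci had H3K27me3 alone and 23 had SUZ12 alone. In MTF2 KO cells SUZ12 met 62.4%, 12.7%, 65.7% and 2.66% of the RING1B loci, in the same order, and 65.9%, 7.89%, 68.6% and 1.24% off chromosome 11. Of the H3K27me3-positive loci, 94.4%, 77.8%, 96.5% and 31.7% also had SUZ12 in their own line. Conversely, 51.0%, 8.37%, 43.4% and 24.8% of the SUZ12-positive loci had H3K27me3. In Parental +OHT cells 460 loci had SUZ12 alone and 42 had both, whereas in I53S cells 56 loci had H3K27me3 alone and 26 had both. A comparison of the 2 marks rests on separate libraries and antibodies whose depths are unknown.

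The loci fell into few patterns over the 4 libraries. A total of 31 loci had H3K27me3 in all 4, of which 13 lay off chromosome 11. The 813 loci of the pattern Parental -OHT with RING1B WT +OHT were the most frequent among those with a peak, followed by 417 loci of Parental -OHT alone and 253 of RING1B WT +OHT alone, and 2354 loci had no peak in any MTF2 KO library. Of the 82 loci of I53S cells, 2 had a peak in that library alone.

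These patterns were ordered by locus width, a property that the H3K27me3 lists did not set. The 104 loci with H3K27me3 in at least 1 RING1B-inactive library had a median RING1B width of 3682 bp (quartiles 2386 to 5920), the 813 with both RING1B-active libraries only 2063 bp (1413 to 3009), the 670 with 1 active library only 1521 bp (1031 to 2173), and the 2354 without a peak 986 bp (671 to 1484). Among loci under 800 bp, H3K27me3 met 10.8%, 0.308%, 8% and 0.205% in the 4 libraries, and among loci of 3000 bp or more 73.3%, 7.41%, 74.6% and 13.6%. From 800 to under 1500 bp the inactive libraries had 0.221% and 0.368%, so that their narrow classes were not in order of width, and off chromosome 11 they had 0.268% each under 800 bp and 0% in that class. The corresponding shares of the MTF2-proficient lines rose from between 19.5% and 70.2% at the narrow loci to between 87.9% and 98.3% at the wide ones. A wider locus also offers more bases to overlap. With at least 50% of a locus required to lie under peaks, 14.8%, 0.203%, 15.0% and 0.457% of all loci counted as occupied.

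**Figure D2:**
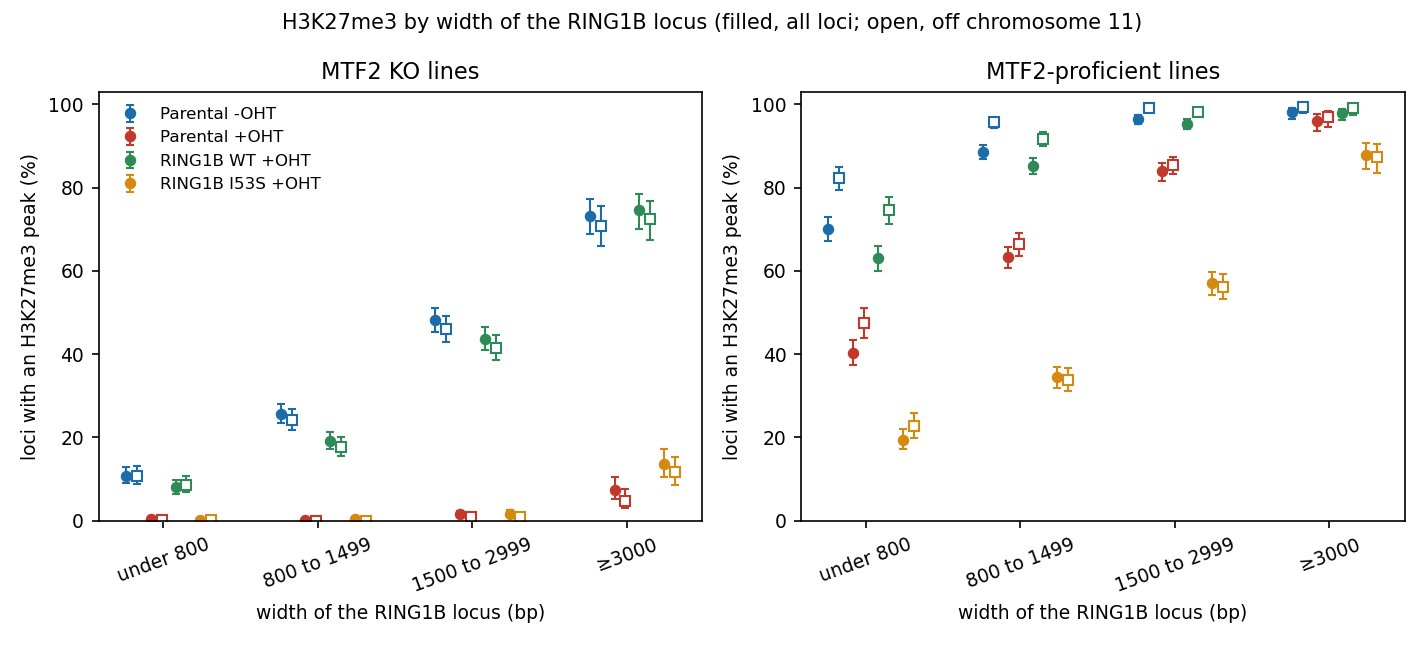
Share of RING1B loci with an H3K27me3 peak (y axis, %) by width of the locus (x axis, bp), in MTF2 KO (left) and MTF2-proficient (right) lines; circles are all loci, squares the loci off chromosome 11, bars 95% Wilson intervals over loci. In each library the share is highest at loci of 3000 bp or more, where it reached 13.6% in MTF2 KO RING1B I53S +OHT.

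The same loci differed in readouts of MTF2-proficient cells. JARID2, the PRC2.2 subunit, met 82.7% of the 104 loci kept without RING1B activity in OHT-treated Parental cells, 57.8% of the loci kept in both active libraries only, 36.6% of those kept in 1 and 17.2% of those without H3K27me3. PCGF2, a subunit of canonical PRC1, met 73.1%, 33.1%, 14.6% and 3.87% of these classes in I53S cells, and RING1B itself 43.3%, 10.5%, 5.37% and 8.03%. In OHT-treated Parental cells, however, PCGF2 met 3.85%, 0.369%, 0.299% and 0.51% of them, and CBX7, another canonical PRC1 subunit, met 11.5%, 0.615%, 0.149% and 0.085% in I53S cells. Before treatment JARID2 met 100%, 100%, 99.4% and 84.1% of them. Peaks of H2AK119ub1 were still called at 92.3%, 79.5%, 63.4% and 52.2% of the classes in OHT-treated Parental cells. In I53S cells they were called at 86.5%, 58.8%, 39.3% and 33.9%. The first class is thus named for the RING1B state of the lines and not for an absence of H2AK119ub1 peaks. As peaks they carry no spike-in scaling, and what they stand for was not tested. The JARID2 shares of OHT-treated Parental and the PCGF2 shares of I53S cells fell in the order of the width of the classes, and width and occupancy were not separated. The order was not particular to JARID2. EPOP, a PRC2.1 subunit, met 90.4%, 76.8%, 59.4% and 33.0% of the classes in OHT-treated Parental cells. MTF2 met 92.3%, 96.3%, 91.9% and 71.2% there, and SUZ12 94.2%, 93.8%, 89.6% and 70.4%. The kept loci were less dense in CpG, at 4.94 per 100 bases against 5.51, 6.09 and 6.62. This density pools all bases of a class, and it was not separated from the width of the loci. Off chromosome 11 JARID2 met 93.7% and PCGF2 84.1% of the 63 kept loci. RING1B of I53S cells met 50.8%, 8.36%, 4.25% and 3.17% of the classes there.

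Over all loci, H3K27me3 was lower at the centre of the RING1B loci than beside it in MTF2 KO cells and highest at the centre in MTF2-proficient cells. Coverage was read at single positions every 200 bp around the locus centres. Of the loci of MTF2 KO Parental -OHT, 13.5% were under a peak at the centre and 23.1% at 2 kb, the mean of both sides, with the highest value of 25.7% at 1600 bp to the left. MTF2-proficient Parental -OHT cells had 84.2% at the centre and 57.6% at 2 kb. SUZ12 of the same MTF2 KO line was at its highest at the centre, at 56.0%, and fell to 19.8% at 2 kb. RING1B WT +OHT showed a shallower dip, with 14.1% at the centre, 18.2% at 1 kb and 14.8% at 2 kb, and I53S cells had 0.609% at the centre and 1.64% at 2 kb. Off chromosome 11 the centre and 2 kb values were 11.9% and 21.6% for Parental -OHT and 0.433% and 0.990% for I53S. At loci of 3000 bp or more RING1B WT +OHT had no dip, with 43.5% at the centre, 41.9% at 1 kb and 40.6% at 2 kb.

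Extending the loci by 2 kb counted this flanking signal. H3K27me3 was then found at or near 2033 loci (51.6%) in MTF2 KO Parental -OHT, of which 704 had it in the flank only and 499 of these 704 had SUZ12 on the locus itself, as did 62.4% of all loci. The loci reached numbered 117 (2.97%) in Parental +OHT, 1588 (40.3%) in RING1B WT +OHT and 257 (6.52%) in I53S, with 63, 422 and 175 in the flank only. In the MTF2-proficient lines the flank-only loci numbered 57, 315, 108 and 520. In I53S cells 13 of the 175 flank-only loci had SUZ12, as did 2.66% of all loci.

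**Figure D3:**
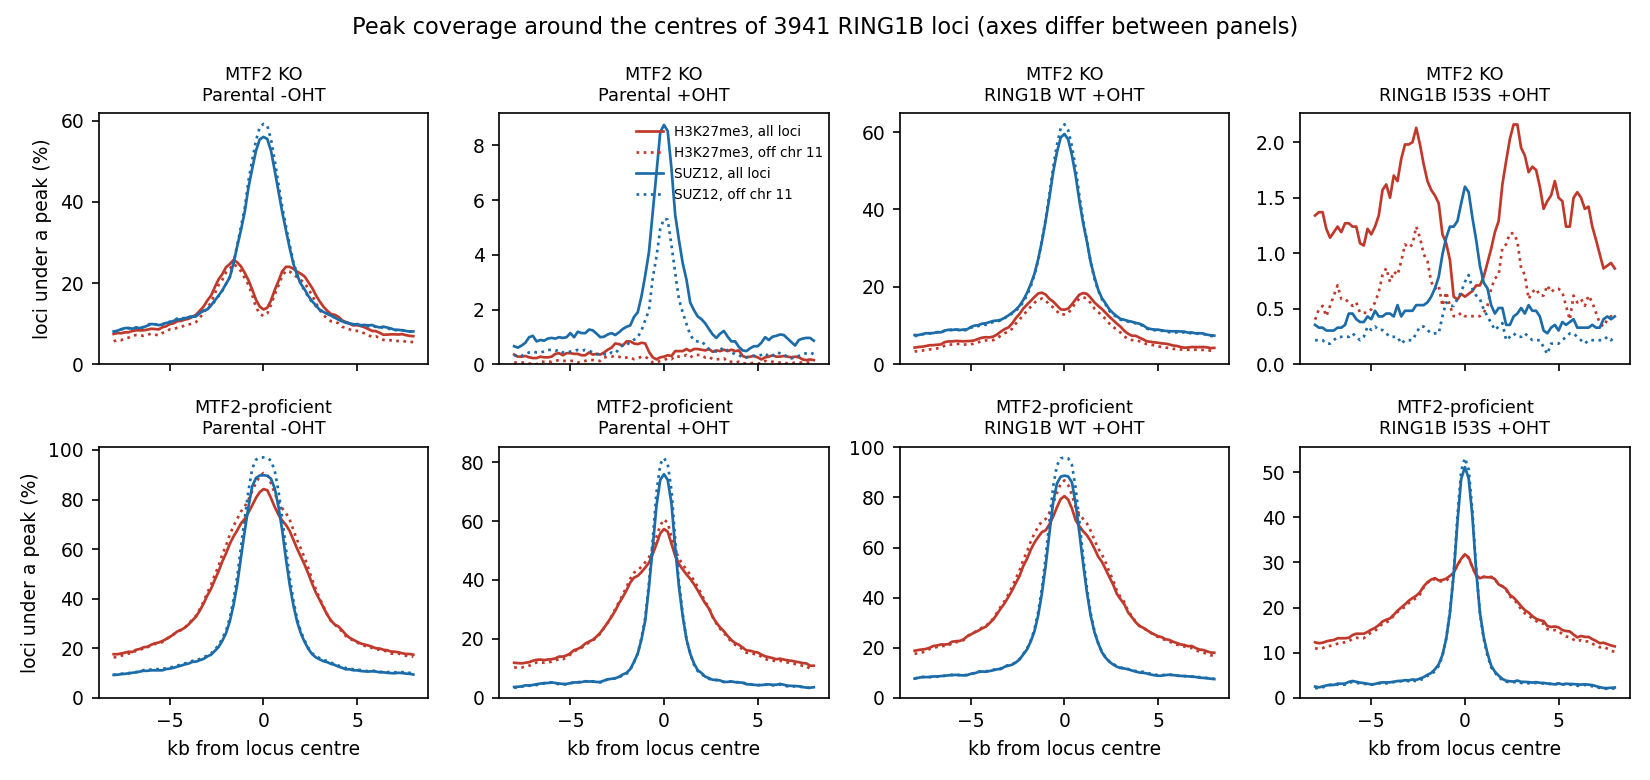
Share of the 3941 RING1B loci under an H3K27me3 (red) or SUZ12 (blue) peak (y axis, %, scales differ) by distance from the locus centre (x axis, kb) in MTF2 KO (top) and MTF2-proficient (bottom) lines; dotted lines leave out chromosome 11. In MTF2 KO Parental -OHT, H3K27me3 has 13.5% at the centre and up to 25.7% beside it, while SUZ12 has 56.0% at the centre.

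Broad domains were met most often, although a wider peak offers more bases to the 1 bp that counted as overlap. Of the H3K27me3 peaks of MTF2-proficient cells that reached 10 kb or more, 98.1% in Parental -OHT, 33.3% in Parental +OHT, 92.2% in RING1B WT +OHT and 82.4% in I53S were still met by a peak of the MTF2 KO line of the same condition (267, 66, 257 and 51 such peaks). Off chromosome 11, 97.8%, 18.2%, 91.3% and 72.7% of the peaks of 10 kb or more were met. Under 1 kb, with all chromosomes, the shares were 9.21%, 0.312%, 1.88% and 3.33%. By length, 25.9%, 1.18%, 12.6% and 8.09% of the marked bases remained under a peak, and 20.5%, 0.446%, 10.3% and 4.15% off chromosome 11. On RING1B loci 52.5%, 3.47%, 40.7% and 9.18% of the proficient peaks were still met, and off them 23.8%, 1.41%, 7.38% and 10.2%. With all chromosomes, I53S was the only library of the 4 whose share on RING1B loci was not above that off them. Without chromosome 11 the shares were 49.5%, 1.82%, 37.3% and 6.07% on the loci. Off the loci they were 18.7%, 0.585%, 5.23% and 5.98%, so that those of I53S were close to equal.

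The Hox clusters, arrays of homeobox genes that pattern the body axis, gave the clearest map of this thinning. In MTF2-proficient Parental -OHT cells peaks covered 85.4% of the Hoxa cluster (chr6:52155590-52260880), 98.9% of Hoxb (chr11:96271457-96368256), 67.6% of Hoxc (chr15:102921103-103036852) and 84.0% of Hoxd (chr2:74668310-74765142). With MTF2 present, Parental +OHT cells had 34.6%, 80.1%, 24.5% and 46.8%, and I53S cells 47.7%, 86.3%, 52.9% and 46.6%. MTF2-proficient RING1B WT +OHT cells had 86.7%, 98.4%, 76.5% and 86.7%. In MTF2 KO Parental -OHT cells 20.9%, 89.3%, 7.78% and 54.2% were left, and in RING1B WT +OHT 10.2%, 90.4%, 6.68% and 41.9%. MTF2 KO Parental +OHT cells had no peak in Hoxa, Hoxc and Hoxd and 4.81% coverage of Hoxb. MTF2 KO I53S cells had none in Hoxa, 1 peak each in Hoxc and Hoxd, and 17 peaks over 33.7% of Hoxb. The Hoxb cluster lies on chromosome 11, and cluster and chromosome cannot be told apart here. SUZ12 of MTF2 KO Parental -OHT still covered 78.9%, 96.0%, 56.0% and 72.8% of the clusters, while the 15 H3K27me3 peaks of Hoxa, against 16 in MTF2-proficient cells, covered less of the cluster.

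At Prdm12, in the window of the gene with 20 kb to either side (chr2:31620037-31675795), MTF2 KO Parental -OHT cells had 4 peaks, with one of 5112 bp and score 18.3 over the promoter printed above. RING1B WT +OHT cells had 3, with a promoter peak of 5550 bp and score 20.7. I53S cells had 2 peaks, both off the promoter, the larger of which measured 1597 bp with score 10.9 (chr2:31632956-31634552). Parental +OHT cells had none. In the MTF2-proficient lines the widest peak of this window measured between 13741 and 13868 bp, with highest scores between 34.6 and 46.7. The widest peak of each MTF2 KO library was thus shorter than that of every MTF2-proficient library.

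**Figure D4:**
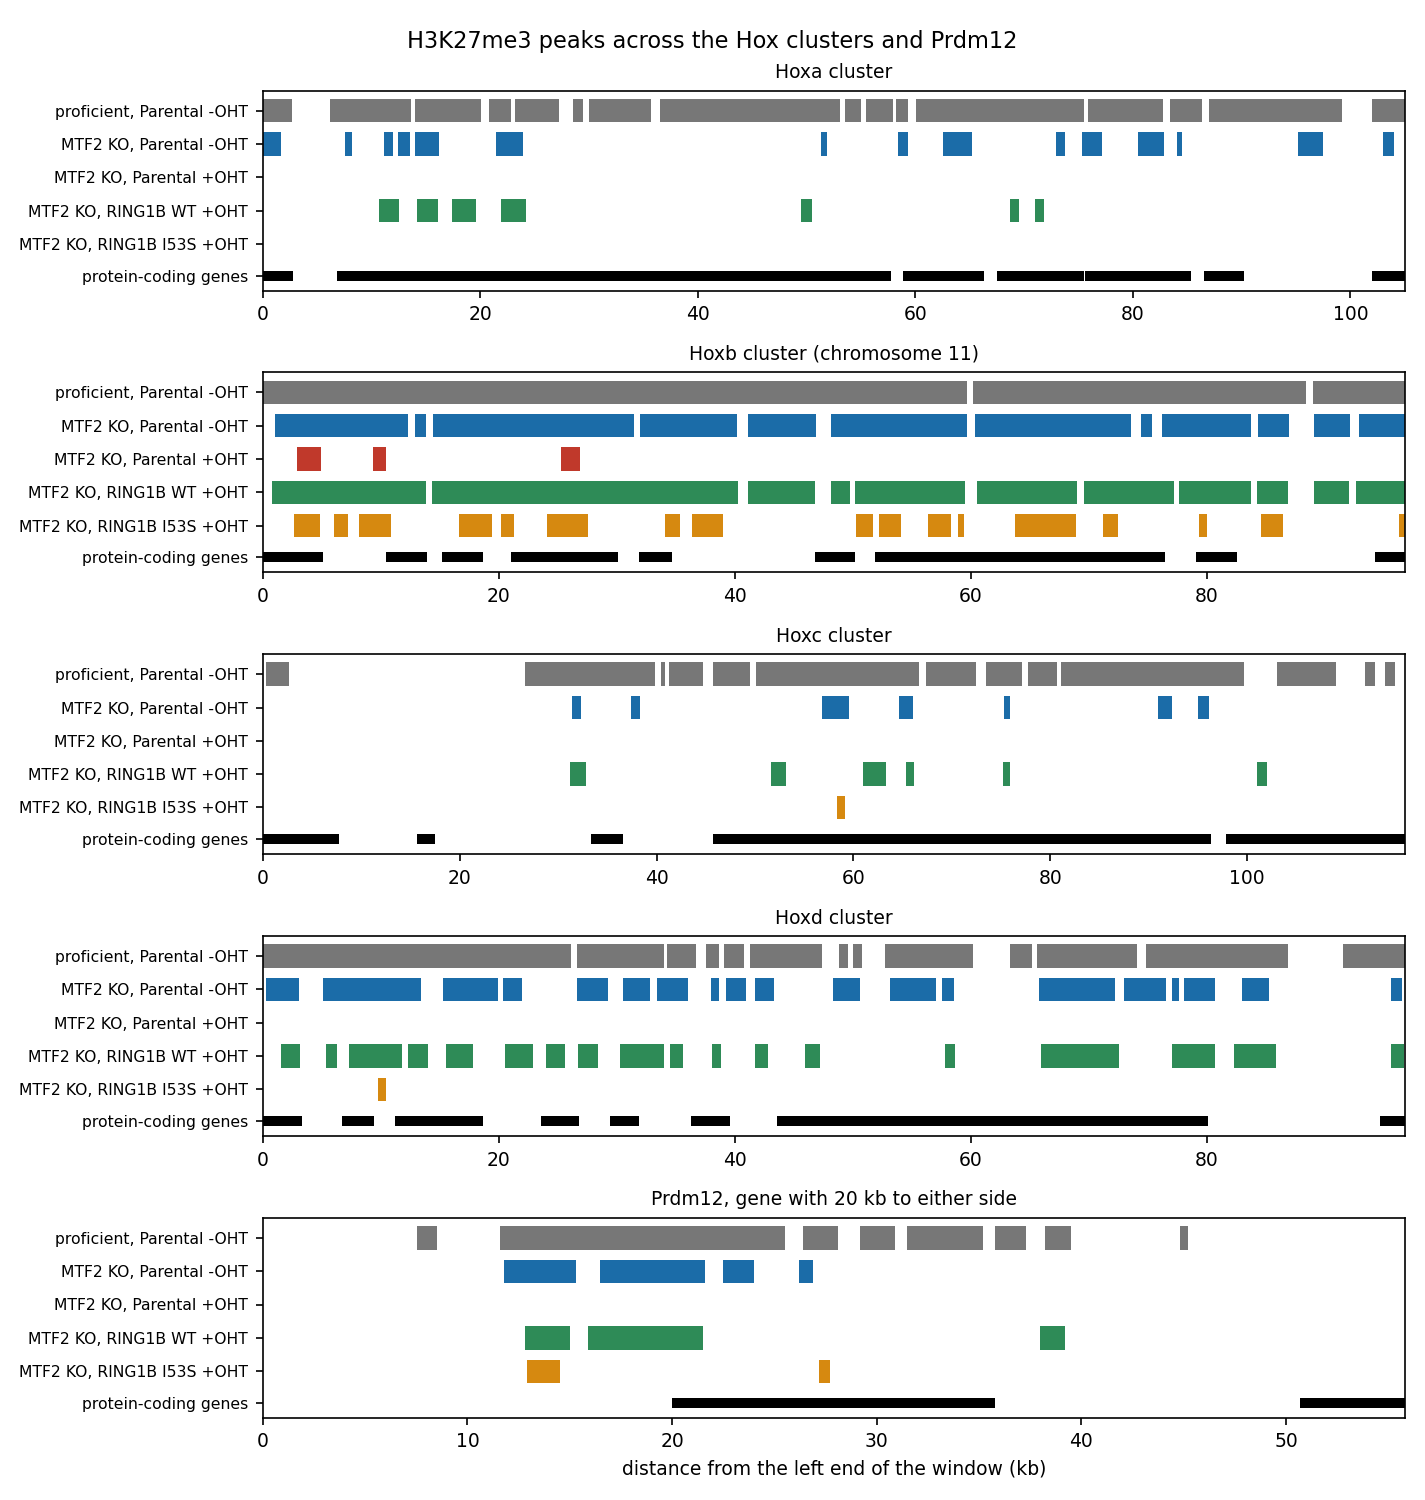
H3K27me3 peaks (blocks) of untreated MTF2-proficient Parental cells and of the 4 MTF2 KO libraries across the Hox clusters and the Prdm12 window, with protein-coding genes in black (x axis, kb from the left end of the window). Hoxb, on chromosome 11, is the only cluster with more than 1 peak in MTF2 KO RING1B I53S +OHT.

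By promoter, 2469 protein-coding genes (11.3% of 21938) had H3K27me3 in MTF2 KO Parental -OHT, 131 (0.597%) in Parental +OHT, 1531 (6.98%) in RING1B WT +OHT and 532 (2.43%) in RING1B I53S +OHT. Off chromosome 11, 1981 (9.76%), 58 (0.286%), 1176 (5.79%) and 291 (1.43%) were left. Of these genes 2396, 124, 1516 and 488 also had a promoter peak in the MTF2-proficient line of the same condition, which is 41.0%, 2.64%, 26.3% and 12.3% of the genes marked there. In I53S cells 26.7% of the 532 genes had no promoter peak in untreated MTF2-proficient cells, against 2.96%, 6.11% and 0.914% in the other MTF2 KO libraries. The same share was 25.2% in MTF2-proficient I53S cells and 16% in MTF2-proficient Parental +OHT cells. A total of 991 genes had a promoter peak in both RING1B-active libraries and neither inactive one, 66 had it in all 4, of which 17 lay off chromosome 11, and 190 had it in I53S alone.

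Of 185 genes on 16 lists of lineage transcription factors and Wnt ligands, 141 had a promoter peak in MTF2 KO Parental -OHT (76.2%, against 11.3% of all genes), 13 in Parental +OHT (7.03% against 0.597%), 130 in RING1B WT +OHT (70.3% against 6.98%) and 34 in I53S (18.4% against 2.43%). Off chromosome 11, 118, 5, 108 and 21 of 161 had one. In the MTF2-proficient lines 177, 165, 176 and 153 of the 185 did. The lists were named for known target families of Polycomb, so that their shares describe these families and no comparison with other genes was tested.

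Within the lists the counts differed between families, which was not tested. They stand beside 11.3%, 0.597%, 6.98% and 2.43% of all promoters, and 29.8%, 4.45%, 21.7% and 14.7% of those on chromosome 11, where Hoxb lies. One peak can count for several neighbours, as that of 17180 bp in Parental -OHT did for Hoxb5, Hoxb6 and Hoxb7. All 10 Hoxb genes had a promoter peak in both active libraries, 2 (Hoxb6 and Hoxb8) in Parental +OHT and 7 in I53S. Hoxa genes had it at 9, 0, 4 and 0 of 11 promoters, Hoxc genes at 5, 0, 3 and 1 of 9, and Hoxd genes at 9, 0, 9 and 2 of 9. The LIM homeobox factors, regulators of neuron and organ identity, had it at 11, 3, 10 and 5 of 12. Lhx2, a forebrain and eye factor on chromosome 2, had scores of 23.0, 13.4, 27.2 and 20.3 with widest promoter peaks of 5734, 1324, 8037 and 3296 bp, and Lmx1b, a factor of dorsal limb and serotonergic neurons, had 33.1, none, 21.9 and 19.6. Of 9 Pax factors, 5 (Pax2, Pax4, Pax6, Pax7 and Pax9) had a promoter peak in I53S with scores from 10.0 to 12.5, and no Pax factor had one in Parental +OHT. Forkhead factors had it at 16, 0, 18 and 1 of 24, the last being Foxf1 of lung and gut mesenchyme at score 17.2, and Irx factors at 5, 0, 5 and 0 of 6.

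Pluripotency factors had 2, 0, 2 and 0 promoter peaks among 15, or 13.3% in the active libraries beside 11.3% and 6.98% of all promoters, and the 20 ribosomal protein genes had none in the 4 libraries. Germline genes, which had 13 of 15 promoters marked in untreated MTF2-proficient cells, had 4 (26.7%), 0, 3 (20%) and 0 in the MTF2 KO lines, beside the same 11.3% and 6.98%.

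**Figure D5:**
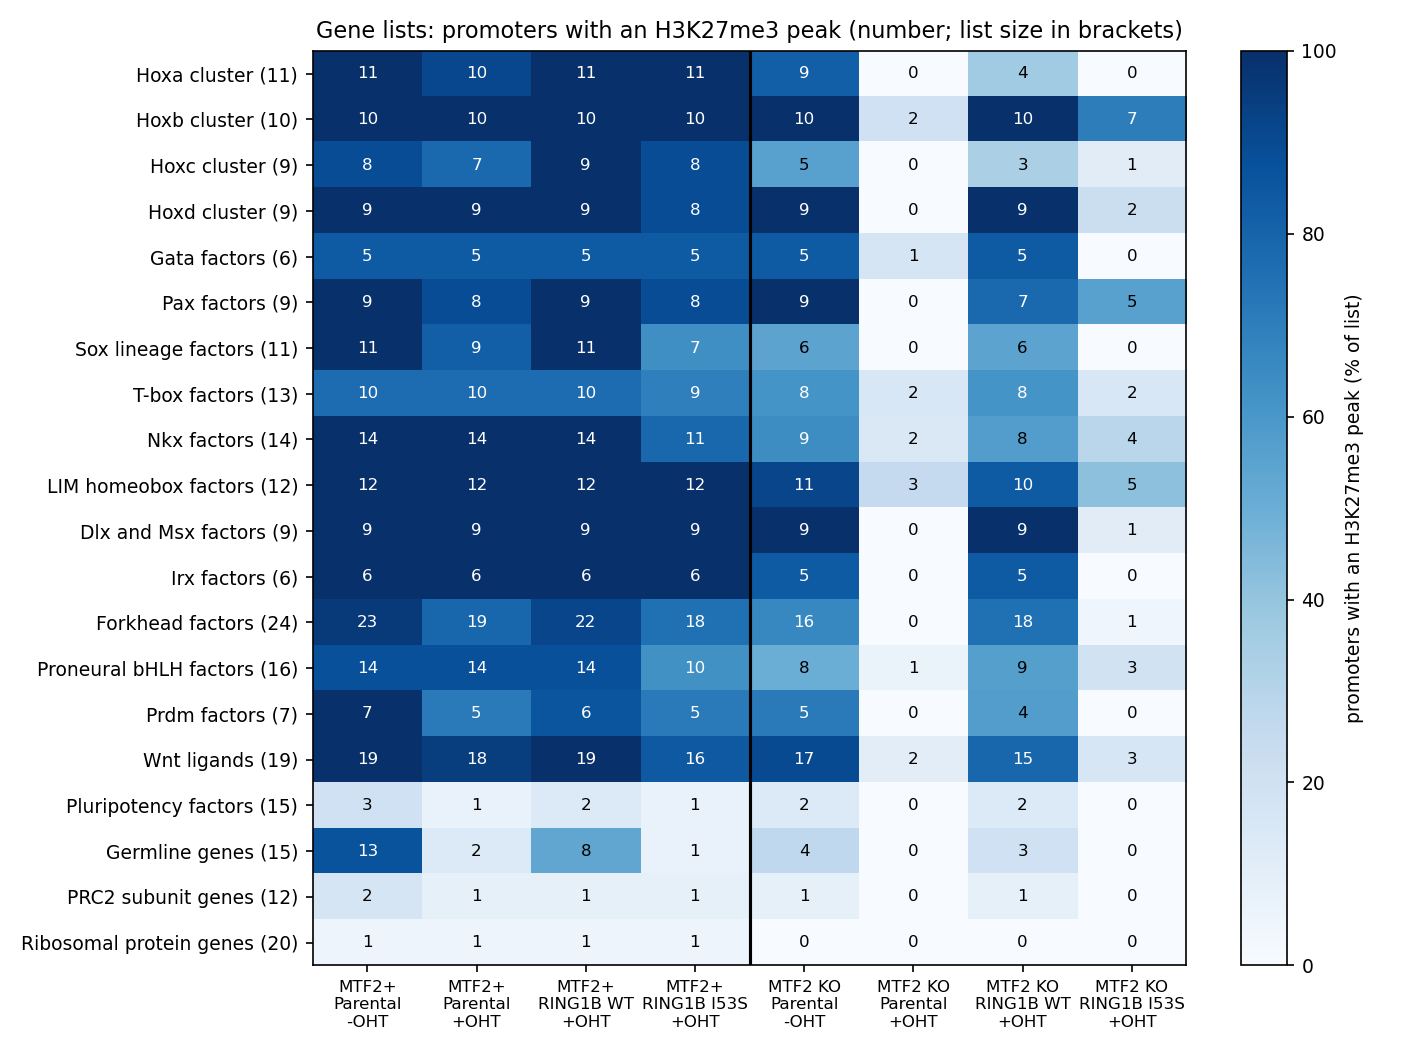
Number of promoters with an H3K27me3 peak (colour, % of the list; list size in brackets) for 20 gene lists (rows) in the 4 MTF2-proficient (MTF2+) and 4 MTF2 KO libraries (columns). The MTF2 KO columns of Parental +OHT and RING1B I53S +OHT hold the low values, with Hoxb at 7 of 10 in I53S as the highest share of any list there.

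Of the 5 highest-scored promoters of each library, Grb10 alone stood in all 4 lists. It had the highest promoter score in every library, with 54.4, 20.5, 55.2 and 45.0 in Parental -OHT, Parental +OHT, RING1B WT +OHT and I53S, and widest promoter peaks of 13398, 6784, 21437 and 7147 bp. Tbx2, a T-box factor of heart and limb, followed in Parental -OHT with scores of 50.2, 14, 40 and 24.1, and Wnt9b, a Wnt ligand of kidney and face development, with 47.6, 13.4, 30.6 and 22.7. Lhx1, a LIM homeobox factor of the head organizer and kidney, had 33.1, 14.1, 41.4 and 29.3, and the proneural factor Neurod2 had 28.4, 15.1, 37.6 and 16.9. Otop2 and Ush1g had 43.7 and 24.9 in the active libraries and no promoter peak in the others. Wnt3, whose promoter peak of 25960 bp was the widest in Parental -OHT, likewise lacked one in both inactive libraries, and Hoxb5 had none in Parental +OHT and one of score 11.7 in I53S. In the regions of joined peaks described below, Otop2 with Ush1g still had 2656 bp under peaks in Parental +OHT and 5495 bp in I53S. Wnt3 had 1104 and 10680 bp there. The mark thus remained in these regions beyond 2.5 kb of the start sites.

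Off chromosome 11 the list was led by other genes. Trpm8 had scores of 34.7, 16.1, 23.3 and 30.7, and its widest promoter peak was larger in I53S (13066 bp) than in Parental -OHT (2825 bp), Parental +OHT (2437 bp) and RING1B WT +OHT (2092 bp). Ugt1a1, in the neighbouring glucuronosyltransferase cluster on chromosome 1, had 14.4, 16.2, none and 32.4, and Mroh2a, beside it, had 19, 13.0, 16.6 and 26.1. Skor1, a transcriptional corepressor of interneurons, had 21.1, 17.0, 20.7 and 15.8, and Pcdh7, a protocadherin, had 12, 19.6, 15.6 and 14.1. Nifk, a nucleolar protein gene, had a score of 23.8 and Sp110, a nuclear body protein gene, 23.5 in I53S, and neither had a promoter peak in the other MTF2 KO libraries. Cyp26b1, which degrades retinoic acid, had 29.8, none, 28.9 and 13.7, and Kcna6, a potassium channel gene, 34.7, none, 16.0 and 10.3.

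Regions common to the 4 libraries gave the core that remained. After peaks under 1 kb apart were joined, 109 regions had a peak in all 4 libraries, of which 88 (80.7%) lay on chromosome 11, against 31.6% of all 9035 regions, and 59 met a RING1B locus. Grb10 (chr11:12007487-12051215) had 41430, 18234, 33896 and 30797 bp under peaks. The Hoxb4 to Hoxb9 region (chr11:96272274-96318332) had 43412, 4653, 44640 and 17328 bp, and Neurod2 (chr11:98310895-98344640) 31594, 9038, 28012 and 12561 bp. The 21 regions off chromosome 11 included Dll4 (chr2:119313173-119337056), a Notch ligand, with 21278, 1428, 16048 and 4481 bp, Skor1 (chr9:63137488-63153861) with 14443, 1310, 10543 and 6445 bp, and Pax7 (chr4:139820034-139834806) with 10645, 699, 11062 and 2453 bp. At Trpm8 (chr1:88295627-88311009) the order was another, with 6830, 7448, 6580 and 14401 bp.

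CpG content of the promoters differed between the classes. Over 300 bases, the median was 13 CpG for the 585 genes with a peak in a RING1B-inactive MTF2 KO library, 18 for the 991 genes of both active libraries only, 13 for the 1361 genes of 1 active library only, 15 for the 4479 genes marked in MTF2-proficient lines only and 9 for the 14522 genes without a peak. The letters GCG, searched on both strands and overlapping CpG, occurred in 90.4%, 96.6%, 94.6%, 92.8% and 79.3% of them, and in 84.1% of all promoters. Off chromosome 11 the medians were 15, 18, 14, 15 and 8. A match of these letters describes the sequence and is no evidence of binding.

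RNA of the MTF2-proficient lines gave a readout that the peak lists did not set. It was measured as counts per gene in 12 libraries, with 2 replicates per group and between 8140106 and 12743460 counts each. In these cells the 8 ESC markers were high, with Pou5f1 at 444 to 515 CPM (counts scaled to library size) and Nanog at 325 to 653 CPM in untreated libraries. Of the markers of other cell types, Vim reached 109 to 140 CPM, Krt7 at most 13.2 CPM and the rest tested under 13.2 CPM before treatment, and Krt7 reached 62 CPM in treated libraries. With edgeR's quasi-likelihood test (log2 fold change of at least 1.5, Benjamini-Hochberg adjusted p under 0.05), OHT raised 2748 of 18154 genes (15.1%) in the Parental line, 244 (1.34%) in RING1B WT and 2323 (12.8%) in RING1B I53S. Among protein-coding genes the shares were 17.1%, 1.60% and 14.7%. The RING1B WT count fell to 21 without replicate 2 of the untreated and to 28 without replicate 2 of the treated libraries, so nothing further is read from it.

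The share that rose with OHT among genes with promoter H3K27me3 in an MTF2 KO library lay above the background. In the Parental line 57.6% of 2051 tested genes with a promoter peak in MTF2 KO Parental -OHT rose, 56.1% of 107 for Parental +OHT, 62.4% of 1281 for RING1B WT +OHT and 40.9% of 406 for I53S, beside 17.1% of all protein-coding genes, with median log2 fold changes of 2.00, 2.04, 2.23 and 1.06 beside 0.07. In the I53S line the shares were 53.5%, 48.6%, 59.5% and 37.2% beside 14.7%, and the second of these was 32.1% without replicate 2 of the untreated I53S libraries. Off chromosome 11 the Parental shares were 59.9%, 62.5%, 64.7% and 40.5%. The genes marked in MTF2-proficient lines only rose at 24.7% and those without any peak at 4.31%. Of the 585, 991 and 1361 genes of the MTF2 KO classes, 451, 839 and 1120 passed the filter on low counts, and untreated levels differed between the classes, with medians of 3.29 CPM, 1.11 CPM and 2.33 CPM beside 38.0 CPM for genes without a peak. Of the tested genes of these 585, 991 and 1361, 42.2%, 66.2% and 48.7% rose in the Parental line, beside 17.1% of all protein-coding genes. In the I53S line 37.8%, 63.8% and 44.5% rose, beside 14.7%. Levels and share that rose were not separated.

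By list, beside 15.1% and 12.8% of all genes, 7 of 7 tested Hoxb genes rose in the Parental line and 7 of 7 in I53S, and so did 11 of 12 LIM homeobox factors in both lines, 7 and 6 of 8 Pax factors, and 13 and 12 of 17 Forkhead factors. Fewer members rose among the Nkx factors (4 and 5 of 9), the proneural bHLH factors (4 and 2 of 9) and the Prdm factors (1 of 4, with 1 lower, in each line), and of 15 pluripotency factors 1 was higher and 5 lower in Parental and 4 were lower in I53S. Gata3, a factor of trophoblast and T cells with promoter scores of 18.9, 11.4, 14.4 and none in the MTF2 KO libraries, was at 0.489 and 0.494 CPM in the untreated and 52.9 and 51.8 CPM in the treated Parental libraries, a log2 fold change of 6.70 ± 0.361 (SE, n = 2 per group, edgeR adjusted p = 7.02e-10). Its levels in the I53S line were 0.927 and 0.672 CPM before and 35.6 and 36.8 CPM after OHT. The groups did not overlap in either line. Grb10 was at 8.47 and 15.2 CPM before and 40 and 63.1 CPM after OHT in the Parental line (log2 fold change 2.14 ± 0.375, edgeR adjusted p = 0.000204), and 9.81 and 14.1 CPM before and 36.5 and 65.0 CPM after OHT in I53S. Its groups did not overlap in either line. How many of all tested genes separate in this way with 2 libraries per group was not counted. Nothing is therefore read from the separation for Gata3 or Grb10.

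Otop2, which had no promoter peak in the RING1B-inactive MTF2 KO libraries but one of score 52.7 and 17530 bp in the MTF2-proficient Parental +OHT cells that the RNA stands for, was at 0.326 and 0.247 CPM before and 4.44 and 2.73 CPM after OHT in the Parental line (log2 fold change 3.57 ± 0.752, edgeR adjusted p = 0.00107). Pax6, the eye and forebrain factor, was at 0.978 and 0.618 CPM before and 10.4 and 7.70 CPM after (log2 fold change 3.45 ± 0.555, edgeR adjusted p = 9.06e-05). Wnt7a, a Wnt ligand of the dorsal limb with promoter scores of 32.0, none, 17.7 and 14.7, was at 0.326 and 0.618 CPM before and 6.58 and 9.16 CPM after (log2 fold change 4.09 ± 0.559, edgeR adjusted p = 1.57e-05). The treated and untreated libraries of these 3 genes did not overlap in the Parental or the I53S line. Here too the share of all genes that separate in this way was not counted, and nothing is read from it. Prdm12, Trpm8 and Ugt1a1 did not pass the filter on low counts.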

How the data were processed

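H3K27me3 was profiled by ChIP-seq with spike-in in 4 MTF2 KO and 4 MTF2-proficient libraries, and RNA-seq in 12 libraries. According to the methods and processing notes, the authors aligned ChIP reads to mm10 (with dm6 for histone marks) with Bowtie 1.2.2 without multi-mapping, removed duplicates with samblaster and called peaks per library with MACS2 2.1.1 against the E14 input. The scores of the deposited peaks are −log10 p-values from this step, at least 10. The RNA counts per gene were made by the authors with STAR 2.7 and featureCounts on GRCm38 and deposited unnormalized. The 4 columns of other samples in the count table were not used.

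Overlaps (1 bp or more), widths, promoters (2.5 kb to either side of GENCODE M21 starts), joined regions and base composition were computed in Python 3.11.15 with pysam 0.24.0, with 95% Wilson intervals for shares. The interval code was tested on simulated intervals. Counts were tested with edgeR 4.0.16 (quasi-likelihood, TMM, filterByExpr, 18154 of 55341 genes, 6 groups in 1 fit) in R 4.3.3, after a test on simulated data. P-values rest on the spread between 2 replicates per group, estimated over all 6 groups in 1 fit and moderated across genes. DESeq2 1.42.0 and other settings served as alternatives.

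The members and lists were chosen with earlier results of these data known. Genes were named by rule as Prdm12, up to 4 members of each of the 20 lists by width and score, and, for each MTF2 KO library, the 5 genes with the highest-scored and the 5 with the widest promoter peaks, with and without chromosome 11. Genes on other grounds, namely those of the regions in all 4 libraries, those printed with RNA values and Muc6, were chosen after their values were seen.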

Additional observations from a re-analysis of the deposited data

How the results depend on the processing

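Values are given in the order MTF2 KO Parental -OHT, Parental +OHT, RING1B WT +OHT, RING1B I53S +OHT, and the cause of a change was not tested unless fewer peaks, genes or samples entered by construction. The share of RING1B loci with H3K27me3 was 6.65%, 0.0507%, 4.52% and 0.33% with scores of at least 20, and 14.8%, 0.203%, 15.0% and 0.457% with 50% of the locus covered. With the 332 top peaks of each list it was 5.02%, 1.37%, 6.06% and 0.99%. With the RING1B peaks of Parental -OHT as loci it was 32.2% and 26.3% in the active libraries, and without chromosome 11 it was 0.835% and 1.55% in the inactive ones. The 31 loci of all 4 libraries became 1, 6, 19 and 13 with scores of at least 20, 50% coverage, the top peaks and no chromosome 11. Genes with a promoter peak numbered 283, 1, 163 and 26 with scores of at least 20, and 206, 233 and 107 in the other libraries than Parental +OHT with the top peaks. In the inactive libraries they numbered 58 and 291 without chromosome 11, and 58 and 202 with promoters of 1 kb to either side. The median width was 2926, 4874, 2998 and 1962 bp with scores of at least 20, 1210, 682, 1258 and 820 bp without chromosome 11, 3140, 2834 and 1740 bp with the top peaks (Parental +OHT unchanged), and 1352 and 1363 bp in the active libraries with peaks joined. Scores of at least 20 left 487, 3, 224 and 62 peaks, so that the 4874 bp of Parental +OHT rests on 3 peaks.

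Without a filter on low counts 466 genes rose in RING1B WT cells, and leaving out a replicate gave 21 to 251. The share of genes that rose in Parental cells was 51.1%, 56.1% and 33.1% without the filter for Parental -OHT, RING1B WT and I53S peaks, 54.8% and 59.4% with DESeq2 for the active libraries, 62.0%, 65.0% and 56.0% with 1 kb promoters, and 59.9% for Parental -OHT without chromosome 11. In I53S cells it was 47.0%, 52.9% and 30% without the filter, 50.3% and 55.7% with DESeq2, 57.8%, 62.7% and 54.5% with 1 kb promoters, and 56.4% and 63.1% without chromosome 11. Leaving out a replicate gave 45.3 to 50.8%, 46.4 to 51.8%, 49.2 to 54.8% and 33.1 to 37.7% in Parental cells, and 37.1 to 48.8%, 32.1 to 43.8%, 41.5 to 53.6% and 27.6 to 33.5% in I53S cells. Where 1 sample was left in an arm, it was assumed to vary like the other groups.

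With the replicate number as a block 2835, 284 and 2393 genes rose in the Parental, RING1B WT and I53S lines, and no result moved past its limit. Deviations of same-numbered samples correlated at 0.133, 0.0884 and 0.215, so the numbers were not taken to pair the samples. No paired analysis of the peak lists was possible because each condition has 1 library. Read depth was unknown for the peaks, which limits every statement on a missing peak.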
